A study of Homo sapiens with 2 samples.

Results

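The genes described here are 40 genes of the G2 phase and mitosis, read by their symbols from the 36601 genes of 1 pooled single-cell library, and all 40 were found. They were followed across xenograft tumours of the established ovarian carcinoma line OVCAR5, of human origin and carrying an IFNg-sensing reporter, in NSG-B2m-/- mice, an immunodeficient strain that lacks mature lymphocytes. The tumours were injected with the cytokines IFNg (interferon gamma), TNFa (tumour necrosis factor alpha) or the combination. Per the labels, the pool joined 13 tumours: 6 h after TNFa alone (10 ng/ml, 3 tumours) or after IFNg (100 ng/ml) and TNFa (10 ng/ml) together (2 tumours), 24 h after IFNg alone (100 ng/ml, 2 tumours), 48 h after IFNg alone (100 ng/ml, 1 tumour), and unexposed tumours, 2 each at 6 h and at 24 h and 1 at 48 h. All tumours shared the cell line, the reporter and the host strain, and only tumour cells positive for the fluorescent protein CFP, which the protocol calls bystander cells, were sorted and sequenced. The treatment fields of the gene expression and hashtag libraries each name a single condition, which is at odds with the description of the pool.

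Antibody-bound barcodes (hashtags) marked the cells, as a pair of hashtags per cell, and the pairs formed 13 populations that are named here by their hashtags. The sources used here do not tie the pairs to tumours. The populations were therefore compared with each other, never as exposed against unexposed, and with 1 library there is no replicate check and no p-value. Of 9083 barcodes, 7485 carried a clear pair, and 2994 of these had 500 genes or more and at most 20% of their UMIs (counted molecules) from mitochondrial genes. These cells held 29032973 UMIs (per cell, median 8646 UMIs from 2842 genes), and a population had 110 to 507 cells. At least 3 of 10 epithelial markers were found in 99.7% of the cells high in the genes described here and in 94.8% of the other cells. No cell had 3 markers of T cells or endothelium. Of the markers, 2 of 6 for T cells (CD3E and CD2) and 1 of 5 for endothelium (KDR) were at 0 UMIs. The other markers of both types had UMIs. Per 1000000 gene UMIs, the T cell markers together had 16.4 in high cells and 7.92 in the other cells. The endothelial markers together had 18.6 and 32.9. At least 3 markers of macrophages were found in 1 high cell and 17 other cells, and of fibroblasts in 2 other cells.

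Cells that have copied their DNA build up, in G2, the proteins that condense chromosomes, assemble the spindle, attach chromosomes to it, release sister chromatids at anaphase and cut the cell apart, and many of these proteins are destroyed as mitosis ends. Their genes are switched on together late in the cycle: the MuvB core binds a short promoter element, the CHR (cell cycle genes homology region), as part of the repressive DREAM complex in resting cells and with B-MYB and FOXM1 in dividing ones. The factor NF-Y binds CCAAT boxes that often lie a few turns of DNA upstream of the CHR. In ovarian carcinoma several of the products, such as TOP2A, AURKA and PLK1, have been pursued as drug targets, and MKI67 encodes the Ki-67 antigen by which pathologists score dividing tumour cells.

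The promoters of 34 of the 40 members were matched in a RefSeq table of windows from 250 bases before to 50 bases after each start (build GRCh38.p14). AURKA, BIRC5, ANP32E, UBE2C, TPX2 and TTK had no entry. The stretches below show how both elements are laid out in members from the 2 ends and the middle of the order described later. TOP2A, MKI67 and KIF11 come from the end whose cells had the highest level of S phase genes. These members themselves had little correlation with those genes. CENPF comes from the middle, and CDC20 and PTTG1 from the opposite end. Each is written 5′ to 3′ on the gene's strand, and capitals mark the CHR letters TTTGAA or TTTAAA and the CCAAT box on either strand, so that TTCAAA and ATTGG are the same elements on the opposite strand.
TOP2A, chr17:40417921-40418096, minus strand: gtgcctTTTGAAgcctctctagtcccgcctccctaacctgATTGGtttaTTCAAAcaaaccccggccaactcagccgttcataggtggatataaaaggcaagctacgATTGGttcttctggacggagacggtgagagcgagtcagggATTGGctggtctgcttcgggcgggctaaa
MKI67, chr10:128126424-128126623, minus strand: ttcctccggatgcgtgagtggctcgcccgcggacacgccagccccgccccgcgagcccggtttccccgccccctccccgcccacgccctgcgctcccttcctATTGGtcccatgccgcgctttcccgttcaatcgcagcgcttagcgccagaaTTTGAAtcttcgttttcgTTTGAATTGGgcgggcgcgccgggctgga
KIF11, chr10:92592930-92593129, plus strand: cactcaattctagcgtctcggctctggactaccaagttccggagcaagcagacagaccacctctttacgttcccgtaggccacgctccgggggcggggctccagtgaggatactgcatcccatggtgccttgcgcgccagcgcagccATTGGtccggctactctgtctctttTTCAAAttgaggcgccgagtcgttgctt
CENPF, chr1:214602995-214603194, plus strand: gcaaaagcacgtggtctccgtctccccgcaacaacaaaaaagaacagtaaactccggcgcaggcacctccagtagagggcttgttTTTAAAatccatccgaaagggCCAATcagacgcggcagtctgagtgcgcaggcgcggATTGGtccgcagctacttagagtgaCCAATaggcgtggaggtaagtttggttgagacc
CDC20, chr1:43358781-43358980, plus strand: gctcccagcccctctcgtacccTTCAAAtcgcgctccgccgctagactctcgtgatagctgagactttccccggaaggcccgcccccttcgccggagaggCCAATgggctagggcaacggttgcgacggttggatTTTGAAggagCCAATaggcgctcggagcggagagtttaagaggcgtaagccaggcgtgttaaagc
PTTG1, chr5:160421712-160421851, plus strand: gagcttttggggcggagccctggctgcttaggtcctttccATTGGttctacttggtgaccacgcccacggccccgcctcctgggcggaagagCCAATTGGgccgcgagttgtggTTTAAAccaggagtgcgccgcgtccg

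These stretches lie just upstream of the RefSeq start of their gene. In GENCODE 29 at most 30 bases of each belong to an exon: 30 in TOP2A and PTTG1, 26 in CDC20 and 0 in MKI67, KIF11 and CENPF. Negative positions count bases back from the start. In MKI67 the second CHR, which begins at position -29, overlaps a reverse CCAAT by 1 base at position -24. In PTTG1 a forward CCAAT at -51 and a reverse CCAAT at -48 overlap, and a CHR follows at -29. CDC20 has its nearest CHR at -65 and a CCAAT at -55, and KIF11 a reverse CCAAT at -53 and a reverse CHR at -28.

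Over the matched members, 30 of 34 (88.2%) had CHR letters on either strand somewhere in the window, against 27.9% of the 27305 genes in the table. With only matches from 100 bases before the start onward, it was 29 of 34 (85.3%) against 13.6%. A CCAAT box was present in 27 of 34 (79.4%) against 39.7% of all genes, and both elements in 24 of 34 (70.6%) against 11.2%. The form TTTGAA was found in 25 members (73.5%, 18.2% of all genes) and TTTAAA, which reads the same on both strands, in 14 (41.2%, 14.5% of all genes). CHR letters were absent from the windows of AURKB, BUB1, CKAP2 and NEK2, and CCAAT letters from those of BUB1B, CENPE, KIF2C, CKAP2, ANLN, NUF2 and NDC80. CKAP2, a spindle protein, thus had neither. Among 26 matched genes of DNA replication and S phase, 6 (23.1%) had CHR letters and 17 (65.4%) a CCAAT box. The letters were also common in 42 matched genes of mitosis outside the list. Of these, 30 (71.4%) had CHR letters, 32 (76.2%) a CCAAT box and 23 (54.8%) both. A match describes the letters only and was not tested as a binding site.

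**Figure D1:**
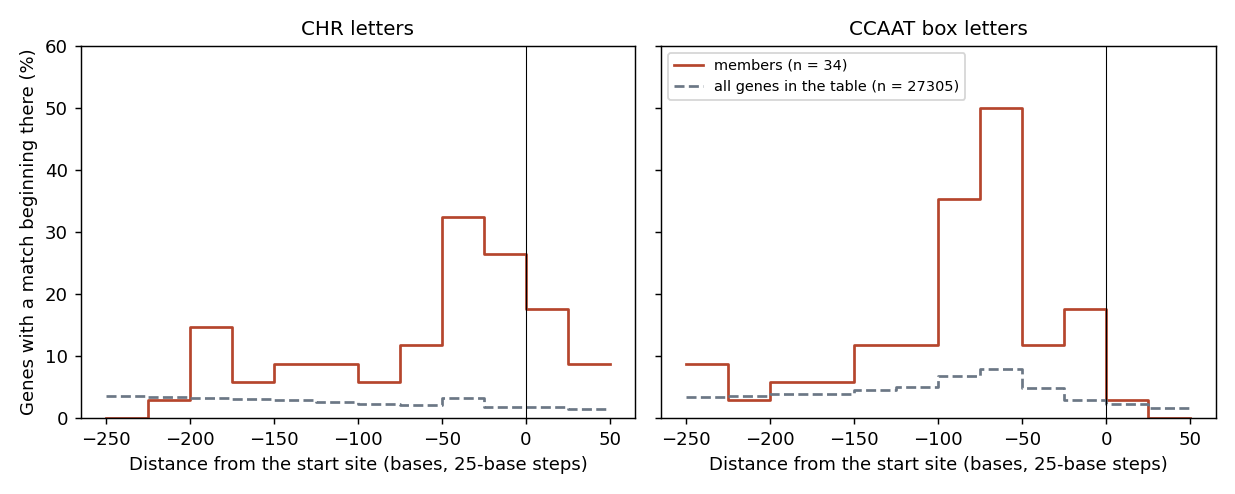
Share of genes (%) with CHR letters (left) or CCAAT box letters (right) beginning in each 25-base step around the RefSeq start, for the 34 matched members (red line) and all 27305 genes in the table (grey dashed line). In the members, CHR letters peak at 32.4% from 50 to 25 bases before the start and CCAAT letters at 50% from 75 to 50 bases before it.

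In the cells, the 40 genes together had 53114 UMIs, or 1829 per 1000000 gene UMIs (CPM, the unit of every level below). Most cells held almost none of them and a minority held very many. Of the 2994 cells, 2304 (77.0%) had 4 summed UMIs or fewer, among them 539 with 0, while 190 cells had 100 or more and the highest cell had 541. Between 5 and 19 summed UMIs lay 327 cells. Cells with 20 or more are called high cells here. There were 363 of them, or 12.1% (exact Clopper-Pearson 95% interval 11 to 13.3%, as for all shares below), and 48 cells lay near the limit, from 15 to 25 summed UMIs. A high cell is a range of a sum, not a cell type.

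**Figure D2:**
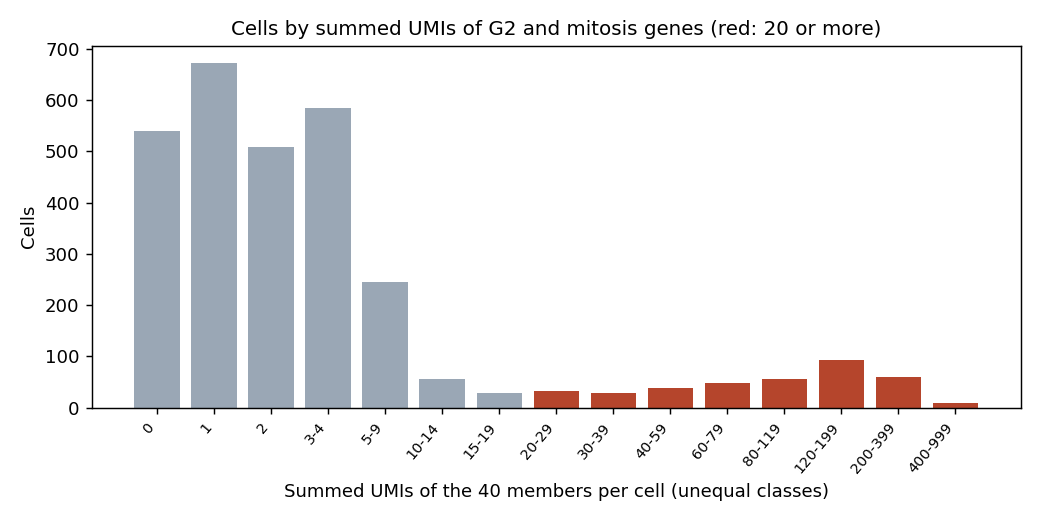
Number of cells (vertical axis) by their summed UMIs of the 40 members (horizontal axis, classes of unequal width), with the classes of high cells in red. Cells with 0 to 4 summed UMIs number 2304, only 28 have 15 to 19, and 93 have 120 to 199.

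High cells held 88.2% of the member UMIs and 20.4% of all gene UMIs. Their median was 107 summed member UMIs and 29 members found, against 2 UMIs and 2 members in the other cells. High cells were deeper, with a median of 15485 UMIs against 8226, and had 13.7% mitochondrial UMIs against 15%. With every cell thinned to 4000 UMIs and 10 summed UMIs as the limit, 318 of 2808 cells (11.3%) were high, and 186 shallower cells were left out. Doublets of 2 cells of the same population cannot be seen from hashtags, and the part of depth and doublets in the sums was not tested beyond this.

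The concentration held for every member when its own UMIs were left out of the sum that defines high cells. All 40 had 50% or more of their UMIs in high cells, against 2.62% of the 13596 genes with 30 UMIs or more, and 29 had 90% or more. The median member had 93.4% there, against 20.0% for all genes tested. KIF20A (97.9%), DLGAP5 (97.1%) and PLK1 (97.1%) were the most concentrated. PLK1, a kinase that drives entry into mitosis, had a UMI in 54.3% of high cells and in 0.684% of the other cells. Further members were spread more outside high cells: ANP32E had 52.2% of its UMIs in them, CKAP2 60%, ECT2 60.7%, KIF20B 69.6% and PTTG1 81.7%. ANP32E, a histone chaperone for H2A.Z, was found in 30% of the other cells, ECT2 in 25.5% and PTTG1 in 18.9%. The shares of cells with a UMI include the effect of the depth difference given above and of free RNA, for which the library holds no cell type known to lack these genes.

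Over all cells the mean pairwise correlation of the members was 0.556 (Pearson, log counts per 10000, 2994 cells). Within the high cells it was 0.348, and within the other cells 0.0352. The closest pairs over all cells were TOP2A with MKI67 (0.84), MKI67 with CENPF (0.83) and TOP2A with CENPF (0.83). The loosest pairs each involved ANP32E, with CKAP2, KIF20B or TTK (0.27 each). These correlations are over cells of 1 library, share its depth differences and are given as descriptions. After thinning to 4000 UMIs the mean was 0.353.

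The summed level of the 40 genes differed between populations. It was 3541 CPM in HTO3+HTO7, then 2400 in HTO3+HTO6, 2281 in HTO3+HTO9, 2275 in HTO4+HTO6, 2082 in HTO4+HTO7, 1851 in HTO2+HTO5 and 1830 in HTO2+HTO7. It was 1720 CPM in HTO3+HTO5, 1461 in HTO2+HTO9, 1426 in HTO2+HTO6, 1381 in HTO4+HTO8, 1191 in HTO2+HTO8 and 680 in HTO4+HTO9. HTO3+HTO7 stood above the other populations and HTO4+HTO9 below them, with the other 11 in between. The highest level (exact Poisson 95% interval 3441 to 3642) was 5.21 times the lowest (623 to 741), with an interval of 4.75 to 5.71. Without these 2 populations the highest was 2.02 times the lowest. Neighbours in the order whose intervals overlapped were HTO3+HTO6, HTO3+HTO9 and HTO4+HTO6, then HTO2+HTO5, HTO2+HTO7 and HTO3+HTO5, and HTO2+HTO9, HTO2+HTO6 and HTO4+HTO8. These intervals cover the counting of molecules only.

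The share of high cells, whose interval covers the sampling of cells, had the same extremes, but the order in between differed in part. HTO4+HTO7, with 15.8%, stood above HTO3+HTO6, with 12.1%, although its summed level was lower. The share was 25.2% in HTO3+HTO7 (18.2 to 33.2%, 35 of 139 cells) and 4.55% in HTO4+HTO9 (1.49 to 10.3%, 5 of 110 cells). In the other 11 populations it ran from 7.03% in HTO2+HTO8 to 15.8% in HTO4+HTO7. The interval of HTO3+HTO7 reached those of HTO3+HTO6, HTO3+HTO9, HTO4+HTO6 and HTO4+HTO7 and lay above those of the others. The interval of HTO4+HTO9 lay below those of HTO4+HTO6, HTO4+HTO7 and HTO3+HTO7 only. After thinning the shares were 24.4% in HTO3+HTO7 and 4.44% in HTO4+HTO9. With up to 50% mitochondrial UMIs allowed they were 12.6% and 5.22%, a ratio of 2.42 (1.34 to 4.38) in place of 5.54 (2.25 to 13.7). With no cell filter the highest share was in HTO4+HTO7, at 9.83%, and the lowest again in HTO4+HTO9, at 4.73%.

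**Figure D3:**
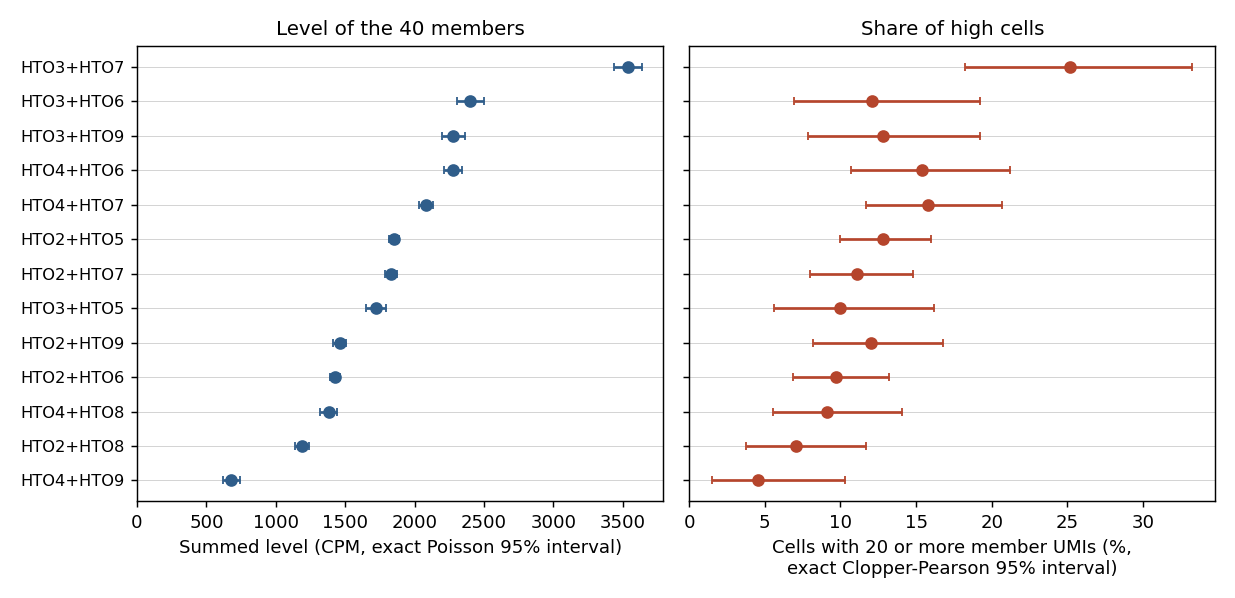
Summed level of the 40 members in CPM with exact Poisson 95% intervals (left) and share of high cells in % with exact Clopper-Pearson 95% intervals (right) in the 13 hashtag populations, ordered by level, in cells with at most 20% mitochondrial UMIs. HTO3+HTO7 is highest in both (3541 CPM, 25.2%) and HTO4+HTO9 lowest in both (680 CPM, 4.55%).

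The level within high cells moved less than the share of high cells. It was 9725 CPM in HTO3+HTO7, 8065 CPM in the median population and 5194 CPM in HTO4+HTO9. In the other cells the level was 224 to 358 CPM. The lowest population also had the lowest depth, a median of 6434 UMIs per cell, while HTO3+HTO7 had 9094 and the median population 8768. Of their barcodes, 28.3% in HTO3+HTO7 and 40% in HTO4+HTO9 passed the cell filter, against 24.3 to 58.2% over the 13 populations. Among the cells kept, which have at most 20% mitochondrial UMIs, the median mitochondrial share was 15% and 14.5%. Over all barcodes with a pair, 8.42% of those with up to 5% mitochondrial UMIs were high, 16.0% with 5 to 10%, 14.7% with 10 to 15%, 9.48% with 15 to 20%, 4.27% with 20 to 30%, 3.15% with 30 to 50% and 1.52% above 50%. Depth differed as well, with a median of 4143 UMIs in the first of these classes, 8621 in the second and 3618 in the last. With no cell filter the ratio between the highest and the lowest population was 2.27, with up to 50% mitochondrial UMIs allowed it was 2.52, and among cells with more than 10% and up to 20% it was 4.92. With at least 1000 genes and at most 10%, which kept 400 cells and as few as 12 in a population, it was 29.9, between HTO3+HTO9 and HTO2+HTO8.

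Gene by gene, 28 of the 40 members had a highest population at 4 times the lowest or more, against 30.7% of the 13596 genes tested and 13.1% of the 8789 genes whose UMIs lay within the members' range of 177 to 4958. Their median ratio was 5.16, against 2.66 and 2.21. The ratio compares extremes, and more of the genes with few UMIs passed it. With a stricter and a looser hashtag rule 27 and 22 members passed, against 31.5% and 29.5% of all genes tested. After thinning it was 37 against 39.3%. The excess over all genes was not kept under 3 other settings. Without HTO3+HTO7 and HTO4+HTO9, 3 members reached 4-fold against 25.4% of all genes tested. With no cell filter it was 8 against 28.0%, and with up to 50% mitochondrial UMIs allowed 10 against 28.4%. In each case this was a smaller share of the members than of all genes tested, which include genes with few UMIs. Under these settings no share was taken for genes within the members' range of UMIs. The highest level was in HTO3+HTO7 for 36 members, against 11.3% of all genes tested. The lowest level was in HTO4+HTO9 for 31, against 16.9%, and in HTO2+HTO8 for 8. Most members thus shared the extremes, while the order of the other populations differed from gene to gene, as the accounts by role below show.

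**Figure D4:**
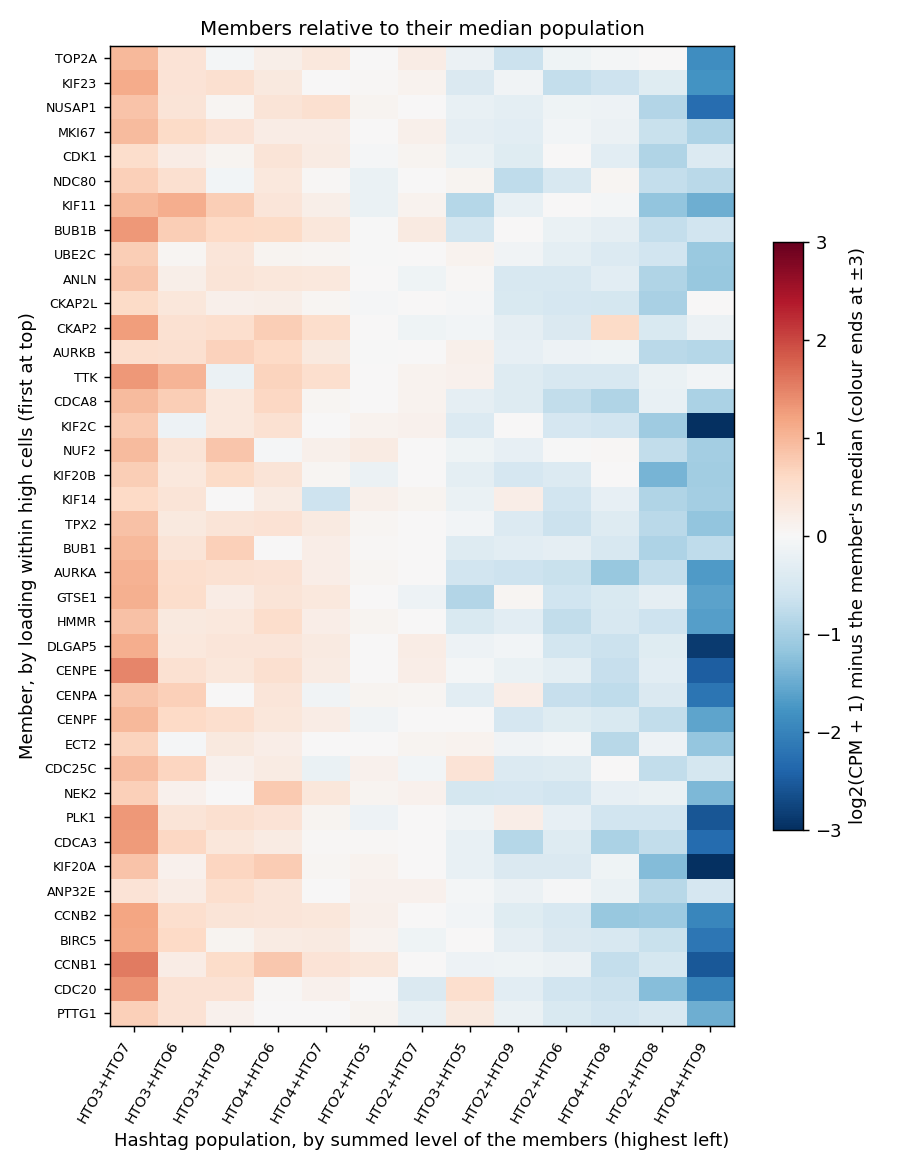
Each member (rows, by loading within high cells, first at the top) in each hashtag population (columns, by summed level, highest left), as log2(CPM + 1) minus the member's median over the 13 populations, with colours ending at ±3. The first column is red for all 40 members, and the last is darkest for KIF2C and KIF20A, at 0 UMIs there.

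Among the genes of chromatin, TOP2A encodes the topoisomerase that untangles sister DNA before anaphase. Its level was 323 CPM in HTO3+HTO7, 219 in HTO3+HTO6, 206 in HTO4+HTO7, 191 in HTO2+HTO7, 185 in HTO4+HTO6, 164 in HTO2+HTO5 and 164 in HTO2+HTO8. It was 158 CPM in HTO3+HTO9, 157 in HTO4+HTO8, 151 in HTO2+HTO6, 144 in HTO3+HTO5, 105 in HTO2+HTO9 and 44.4 in HTO4+HTO9. The ratio of the extremes was 7.28 (5.13 to 10.7), and HTO2+HTO8, among the lowest for most members, sat at the median for TOP2A. MKI67 encodes Ki-67, which coats mitotic chromosomes and keeps them apart. It ran from 47.0 CPM in HTO4+HTO9 over a median of 90.3 to 174 in HTO3+HTO7, a ratio of 3.70 (2.60 to 5.41), and HTO2+HTO8, at 56.2 CPM, was near its lowest. ANP32E had the smallest ratio of all members, 2.55 (1.92 to 3.43). It ran from 40.5 CPM in HTO2+HTO8 over a median of 72.8 to 104 in HTO3+HTO9, so neither extreme was that of the list.

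The cyclin B-CDK1 axis is the engine of mitotic entry: CDK1 is the kinase, CCNB1 and CCNB2 are its cyclins, CDC25C is the phosphatase that removes its inhibitory phosphates, and CDCA3 is a trigger of mitotic entry that works in the turnover of the inhibitory kinase WEE1. The cyclins and the kinase differed in range. CCNB1 was 172 CPM in HTO3+HTO7, 102 in HTO4+HTO6, 85.7 in HTO3+HTO9, 77.6 in HTO4+HTO7, 72.9 in HTO2+HTO5, 67.5 in HTO3+HTO6 and 57.8 in HTO2+HTO7. It was 53.2 CPM in HTO2+HTO9, 52.1 in HTO3+HTO5, 50.7 in HTO2+HTO6, 39.5 in HTO2+HTO8, 35.0 in HTO4+HTO8 and 9.14 in HTO4+HTO9. The extremes, 233 and 7 UMIs, differed by a ratio of 18.8 (8.97 to 47.2), and each stood apart from its neighbour. CCNB2 had a ratio of 9.59 (4.51 to 24.4), from 9.14 over 38.2 to 87.6 CPM in the same populations. CDCA3 ran from 3.92 CPM (3 UMIs) in HTO4+HTO9 over 23.3 to 58.2 in HTO3+HTO7, a ratio of 14.9 (4.90 to 73.6). CDK1 itself ran only from 8.11 CPM in HTO2+HTO8 over 16.1 to 23.6 in HTO3+HTO7, a ratio of 2.91 (1.53 to 5.78), and HTO4+HTO9 had 11.8 CPM. CDC25C, the member with the fewest UMIs (177), had a ratio of 3.86 (1.45 to 12.0).

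The mitotic kinases and the spindle checkpoint were represented by PLK1, AURKA, NEK2, TTK, BUB1 and BUB1B, and 5 of the 6 passed 4-fold. PLK1 was at 52.3 CPM (71 UMIs) in HTO3+HTO7, 20.5 in the median population and 2.61 (2 UMIs) in HTO4+HTO9. That ratio, 20.0, was the largest of the members, and its interval of 5.34 to 169 shows how little the 2 UMIs fix it. The next lowest populations, HTO4+HTO8 and HTO2+HTO8, each had 13.5 CPM. AURKA, the kinase of centrosomes and spindle poles, ran from 17.0 over 57.6 to 119 CPM, a ratio of 6.99 (3.97 to 13.4), again from HTO4+HTO9 to HTO3+HTO7. The checkpoint kinase BUB1 and its partner BUB1B were lowest in HTO2+HTO8, at 9.19 and 8.11 CPM, and highest in HTO3+HTO7, at 36.8 and 36.1. TTK, the kinase that starts checkpoint signalling, had a ratio of 3.97 and was lowest in HTO2+HTO6. NEK2, a centrosome kinase, was highest in HTO4+HTO6, at 14.8 CPM, and its lowest value rests on 2 UMIs.

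The anaphase promoting complex marks securin and the B cyclins for destruction. CDC20 is the activator that brings substrates to it, UBE2C the enzyme that starts their ubiquitin chains, and PTTG1 is securin, which holds the protease that cuts cohesin. CDC20 ran from 11.8 CPM (9 UMIs) in HTO4+HTO9 over 50.2 to 130 in HTO3+HTO7, a ratio of 11 (5.68 to 24.5). After HTO3+HTO7, its next levels were 71.2 in HTO3+HTO5 and 68.5 in HTO3+HTO6. PTTG1 was 253 CPM in HTO3+HTO7, 206 in HTO3+HTO6, 189 in HTO3+HTO5, 168 in HTO3+HTO9, 162 in HTO2+HTO5, 155 in HTO4+HTO6 and 153 in HTO4+HTO7. It was 134 CPM in HTO2+HTO9, 130 in HTO2+HTO7, 112 in HTO2+HTO6, 110 in HTO2+HTO8, 102 in HTO4+HTO8 and 54.8 in HTO4+HTO9. The ratio was 4.61 (3.34 to 6.51). HTO3+HTO5, in the middle of the list's order, was the third for PTTG1 and the second for CDC20. UBE2C ran from 49.6 over 108 to 181 CPM, a ratio of 3.65 (2.59 to 5.28).

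The chromosomal passenger complex corrects wrong attachments of chromosomes and later guides the cut between daughter cells. Its members here are the kinase AURKB and its partners BIRC5 (survivin) and CDCA8 (borealin). BIRC5 ran from 15.7 CPM (12 UMIs) in HTO4+HTO9 over 73.5 to 166 in HTO3+HTO7, a ratio of 10.6 (5.96 to 20.9). AURKB had a smaller ratio, 3.14 (1.30 to 9.16), and its highest level, 24.6 CPM, was in HTO3+HTO9. CDCA8 lay between, at 4.04 (1.71 to 11.6). The intervals of the 3 ratios overlapped.

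At centromere and kinetochore, CENPA is the histone H3 variant that marks the centromere, NDC80 and NUF2 form part of the coupler that grips microtubules, CENPE is a motor that carries chromosomes to the plate, and CENPF is a large kinetochore protein. CENPE was 94.3 CPM (128 UMIs) in HTO3+HTO7, 33.4 in the median population and 5.22 (4 UMIs) in HTO4+HTO9, a ratio of 18 (6.88 to 67.3). The next highest level was 46.8 in HTO4+HTO6, so HTO3+HTO7 stood well above the rest. CENPF ran from 40.5 over 123 to 243 CPM, a ratio of 6.00 (4.15 to 8.98). CENPA's ratio of 11 rests on 2 UMIs in HTO4+HTO9 (2.85 to 94.0). NDC80 was among the 3 members with the smallest ratios, 2.99 (1.64 to 5.90), from 17.0 CPM in HTO4+HTO9 over 30.6 to 50.8 in HTO3+HTO7. Its partner NUF2 had a ratio of 4.40 (1.73 to 14.3).

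The 6 kinesins, motors that slide or shorten microtubules, included the genes with the fewest UMIs in HTO4+HTO9. KIF2C, which shortens microtubules at kinetochores, had 0 UMIs there and 24.3 CPM (33 UMIs) in HTO3+HTO7. With the 0 in HTO4+HTO9 set to a limit of 3 UMIs the ratio was 6.20, with a counting interval of 1.95 to 31.6. KIF20A, which acts in the last steps of division, also had 0 UMIs there. Against HTO2+HTO8, with 2.70 CPM and 5 UMIs, its level of 15.5 CPM in HTO3+HTO7 was 5.72 times as high (2.1 to 19.4). KIF23, the motor of the central spindle, ran from 7.83 CPM (6 UMIs) in HTO4+HTO9 over 29.5 to 64.8 in HTO3+HTO7, a ratio of 8.27 (3.65 to 23.2). KIF11, which pushes the spindle poles apart, was highest in HTO3+HTO6 (35.2 CPM), with 32.4 in HTO3+HTO7 and 5.22 (4 UMIs) in HTO4+HTO9. KIF20B had a ratio of 4.63 (3.06 to 7.21), with its lowest level in HTO2+HTO8. KIF14, the only kinesin under 4-fold, had 3.57 (1.05 to 18.8).

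Of the 7 spindle proteins, 5 passed 4-fold. DLGAP5, which stabilises the microtubule fibres bound to kinetochores, was 75.9 CPM (103 UMIs) in HTO3+HTO7, 35.2 in the median population and 3.92 (3 UMIs) in HTO4+HTO9, a ratio of 19.4 (6.44 to 95.4). NUSAP1, which bundles microtubules near chromosomes, ran from 13.1 CPM (10 UMIs) in HTO4+HTO9 over 67.7 to 123 in HTO3+HTO7, a ratio of 9.42 (5.00 to 20.0). TPX2, the activator of AURKA on the spindle, had 4.27 (2.94 to 6.38), HMMR 6.06 (3.35 to 12.0) and GTSE1 7.33 (2.70 to 27.9). CKAP2 and CKAP2L, related proteins of the spindle, did not reach 4-fold, with 3.35 (2.44 to 4.64) and 3.15 (1.71 to 6.07), and both were lowest in HTO2+HTO8. CKAP2 was 64.0 CPM in HTO4+HTO8, above its median of 42.9, whereas the list was low in that population. CKAP2L was 18.3 CPM in HTO4+HTO9, close to its median of 18. For cytokinesis, ANLN, a scaffold of the contractile ring, had a ratio of 4.01 (2.44 to 6.98) and ECT2, the exchange factor that activates RhoA at the furrow, 3.63 (2.41 to 5.67).

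Within the 363 high cells the members were not all equally correlated, with 0.68 for CCNB1 with PTTG1 and -0.04 for CDK1 with CDC20. The shares of the summed member UMIs taken by each member were put into a principal component analysis, whose first component took 12.3% of the variance and the second 6.70%. At its first end stood TOP2A (loading -0.242), KIF23 (-0.214), NUSAP1 (-0.203) and MKI67 (-0.20). At the opposite end stood PTTG1 (0.378), CDC20 (0.273), CCNB1 (0.261) and BIRC5 (0.256), followed by CCNB2 (0.235). Shares of 1 sum cannot all rise together, so loadings of both signs follow from the method. The ordering was compared with 30 genes of DNA replication and S phase, which had no part in choosing members or cells. A member's correlation with their summed level over high cells ran from 0.15 for CDK1 and 0.14 for KIF11 to -0.59 for CCNB1 and -0.64 for PTTG1. It was below -0.2 for 15 members, above 0.1 for 3 and in between for 22. Over the 40 members the loading and this correlation had a rank correlation of -0.86, a description over genes that share the same cells.

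**Figure D5:**
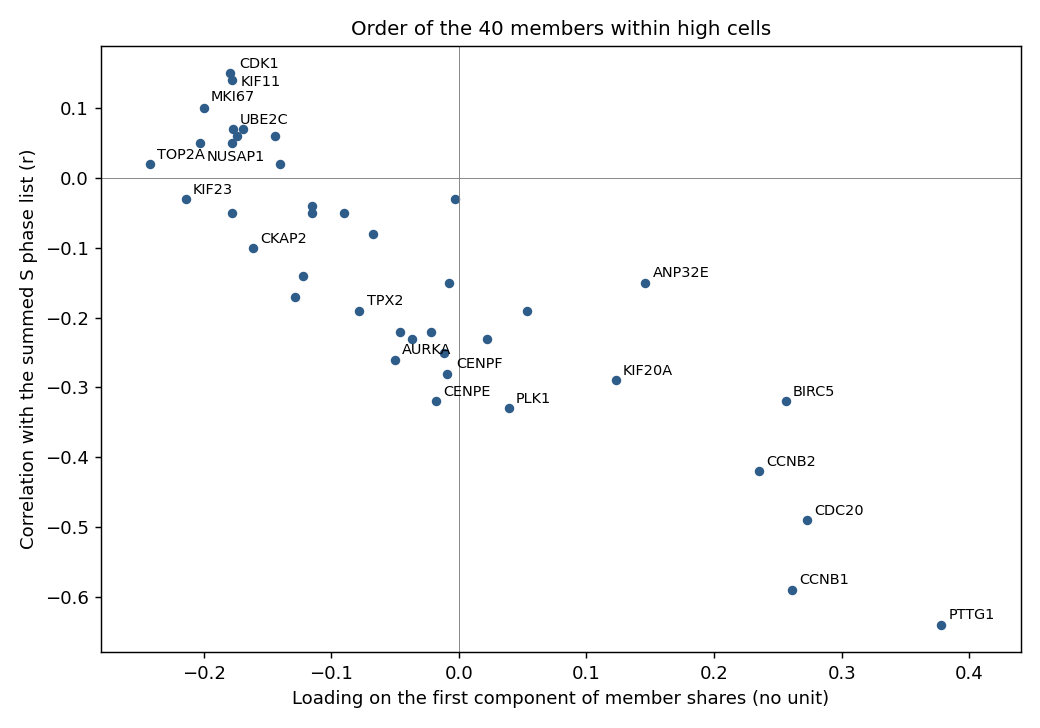
Loading of each of the 40 members on the first component of member shares within high cells (horizontal axis, no unit) against its correlation with the summed S phase list over the same 363 cells (vertical axis, r), with 20 members named. PTTG1, CDC20, CCNB1, CCNB2 and BIRC5 lie apart at the lower right, and TOP2A, KIF23, NUSAP1 and MKI67 at the left near r of 0.

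Cut along the component into 3 equal groups of 121 cells, the high cells differed in the genes used. The S phase list was 3311 CPM in the first group, 1624 in the second and 974 in the third. The members together were 6224, 10074 and 6891 CPM, highest in the middle group, which also had the highest median depth (15493, 18273 and 13394 UMIs). The correlation of the component with depth over high cells was -0.17. Levels of the members along the groups are set by the component itself and are given as a description. TOP2A was 791, 1162 and 314 CPM. CDK1 was 84.8, 105 and 17.1 CPM, while its cyclin CCNB1 was 93.0, 397 and 434 CPM. PTTG1 was 229, 586 and 1040 CPM, and CDC20 70.4, 225 and 390 CPM. PLK1 (37.5, 150 and 111 CPM) and AURKA (136, 340 and 224 CPM) were highest in the middle group. The kinase CDK1 and its cyclin CCNB1 were thus placed far apart, and within high cells CDK1 and CDC20 had a correlation of -0.04, whereas CCNB1 and PTTG1 had 0.68 and TOP2A and NUSAP1 0.67.

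Genes outside the list, which had no part in the component, were placed along it as well. FBXO5, an inhibitor of the anaphase promoting complex in S phase and G2, had a correlation of -0.53 with the component, and its level was 133, 79.2 and 18.8 CPM in the 3 groups. RRM2, a subunit of the enzyme that makes deoxynucleotides, had -0.53, with 296, 159 and 62.4 CPM. CLSPN had -0.52, and the sliding clamp PCNA -0.47. At the opposite end were CDKN3 (0.48), a phosphatase of cyclin-dependent kinases, and UBE2S (0.41), which extends the ubiquitin chains that UBE2C starts.

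High cells of most populations were spread over the 3 groups: those of HTO2+HTO5 numbered 21, 19 and 25, and those of HTO3+HTO7 numbered 8, 11 and 16. All 5 high cells of HTO4+HTO9 fell in the first group, and the 18 of HTO4+HTO8 fell 10, 6 and 2. These 2 populations were picked out after their values were seen, and 5 cells fix no share.

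The summed S phase list was higher in high cells in all 13 populations, 1991 against 328 CPM over all cells. Of its 30 genes, 22 were higher in all 13 populations and the others in 10 to 12. The share of all genes that were higher in all 13 was not taken, so no background stands beside this count. RRM2 had the largest ratio, with 176 CPM in high cells and 2.60 CPM in the others, and the uracil glycosylase gene UNG the smallest, with 17.7 and 8.66 CPM. Across populations the S phase list had a narrower range than the members, from 335 CPM in HTO2+HTO8 over 722 to 889 in HTO4+HTO6. In HTO4+HTO9, lowest for the members, it was 665 CPM, just under that median.

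Of 10 genes known to restrain the cell cycle, the summed level was 423 CPM in high cells and 496 in the others, and was higher in high cells in 3 of 13 populations. Counted per cell it was 6.90 UMIs in high cells and 4.36 in the others, more in high cells in 12 of 13 populations. On the CPM scale, single genes went opposite ways. CDKN2C and CDKN2D, inhibitors of the G1 kinases CDK4 and CDK6, were higher in high cells in all 13 populations (19.2 against 6.58 and 47.2 against 11.9 CPM). BTG1, an antiproliferative gene, was lower in all 13 (200 against 320 CPM), and CDKN1C lower in 12 (11.6 against 30 CPM). With 8583 UMIs BTG1 had the most of the 10 genes, and the lower pooled CPM of the list in high cells rests on it. CDKN1A was 23.6 against 16.4 CPM and higher in 10.

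The cytokine response lists were set beside the members because the tumours differed in cytokine. In the 5 populations with the lowest member levels, the summed level of 10 IFNg response genes (among them CXCL10, IDO1 and GBP1) was 7435 CPM in HTO4+HTO9, 21206 in HTO2+HTO8, 6162 in HTO4+HTO8, 1669 in HTO2+HTO6 and 18154 in HTO2+HTO9. In the 5 with the highest member levels it was 373 in HTO3+HTO7, 574 in HTO3+HTO6, 412 in HTO3+HTO9, 473 in HTO4+HTO6 and 569 in HTO4+HTO7. Of 10 TNFa response genes (among them NFKBIA, CXCL8 and ICAM1), the first 5 had 790, 4249, 688, 7023 and 5014 CPM and the other 5 had 333, 428, 586, 373 and 466 CPM. The 3 populations in the middle did not follow 1 direction. HTO2+HTO5, with 1851 CPM of the members, had 784 CPM of the IFNg list and 1495 of the TNFa list. HTO2+HTO7, at the median with 1830 CPM of the members, had 1558 and 5524. HTO3+HTO5, with 1720 CPM of the members, had 347, the lowest IFNg level of all, and 497. Since the populations are not mapped to tumours, a difference of tumour and one of cytokine cannot be told apart.

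The same lists were compared between high and other cells within each population, as the ratio of their CPM. For the IFNg list the median ratio over populations was 0.694 (0.492 to 1.99), above 1 in 2 of 13, HTO3+HTO9 and HTO4+HTO8. For the TNFa list it was 0.801 (0.455 to 0.997), above 1 in none, and for MHC class II genes 0.543 (0.338 to 1.36), above 1 in 1. Pooled over populations, which differ in these lists and in their share of high cells, the IFNg list was 2342 CPM in high cells and 4648 in the others, and the TNFa list 1479 and 3078. Counted per cell, high cells held more UMIs of the IFNg list and of the TNFa list in 11 of 13 populations each, and of MHC class II genes in 6 of 13.

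Genes outside the list with the most similar pattern, by correlation with the members' score over 2994 cells, were PRC1 (0.86), which bundles the microtubules of the central spindle, ASPM (0.85), a spindle pole protein, CDKN3 (0.78), DEPDC1 (0.77), CEP55 (0.77), a protein of abscission, HMGB2 (0.77), SGO2 (0.74), a protector of centromeric cohesin, HJURP (0.73), the chaperone of CENPA, PIMREG (0.71) and TYMS (0.71). PRC1 ran from 20.9 CPM over 62.5 to 123 in HTO3+HTO7, with 91.0% of its UMIs in high cells. TYMS, which makes thymidylate for DNA synthesis, ran only from 40.5 over 83.2 to 106 CPM and was highest in HTO4+HTO6.

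Beyond these, 50 related genes of mitosis outside the list were examined, all of them found. Of these, 27 reached 4-fold between populations, against the 30.7% of all genes given above, with a median ratio of 4.37. With up to 50% mitochondrial UMIs allowed it was 11 against 28.4% of all genes, and with no cell filter 7 against 28.0%. In the cells kept, HTO3+HTO7 was highest for 30 related genes, against 11.3% of all genes tested, and HTO4+HTO9 lowest for 25, against 16.9%. Of the 50, 44 had 50% or more of their UMIs in high cells, against 2.62% of all genes tested. FOXM1, the transcription factor of the late cell cycle, ran from 5.22 over 12.3 to 22.8 CPM in the same 2 populations, and 88.6% of its UMIs were in high cells. MAD2L1, a checkpoint protein, ran from 9.14 CPM in HTO4+HTO9 over 25.6 to 55.4 in HTO3+HTO6. Others were less restricted, against 20.4% of all gene UMIs in high cells: CDC25B had 30.2% of its UMIs in high cells, SKA2 35.8%, CKS1B 39.8%, G2E3 41.5%, KIF18A 43.5% and WEE1 47.4%. CKS1B, a small subunit of cyclin-dependent kinases, ran only from 117 over 162 to 191 CPM.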

How the data were processed

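The deposited matrix holds whole-number UMI counts of genes and hashtags, not normalised, made by the authors using Cell Ranger (5.0.1 per the file headers, 2.1.1 per the submitters' processing notes, with GRCh38). The sources used here do not give its gene annotation. A pair is the 2 highest of HTO2 to HTO9, the second with 20 counts or more and at least 4 times the third. Cells with under 500 genes or over 20% mitochondrial UMIs were left out. No doublet caller was run. UMIs were summed per population and divided by all gene UMIs (CPM). Intervals of levels and ratios cover the counting of molecules, and those of shares the sampling of cells. Correlations used log1p of counts per 10000. The members and gene lists were chosen with earlier results of these data known. The members named with full values were the 6 with the highest and the 3 with the lowest ratio and the 4 at each end of the order, and the non-members the 10 best correlated. Their values in every population are drawn, and stated by lowest, median and highest except for 3 members. Scripts used matplotlib 3.10.9, pandas 2.3.3, scipy 1.17.1 and numpy 2.4.6 in Python 3.11.15 and were tested on simulated data. Alternatives were other cell filters, hashtag rules, thinning, limits for a high cell, minimums per gene and correlations. Columns of other samples numbered 0.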

Additional observations from a re-analysis of the deposited data

Results flagged for a closer look

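Barcodes outside the populations described also held UMIs of the 40 members. The 4491 barcodes that carried a pair but failed the limits on genes or mitochondrial UMIs held 13782 member UMIs, a level of 584 CPM, and 2.87% of them (2.40 to 3.40%) had 20 summed UMIs or more at a median depth of 4398 UMIs. The 617 barcodes that passed those limits but had no clear hashtag pair held 11716 member UMIs, a level of 1772 CPM, and 15.6% of them (12.8 to 18.7%) were high at a median depth of 9453 UMIs. Both were noted because their signal lay in barcodes that the main comparisons did not use. Barcodes of the first kind entered only the settings with a looser or no cell filter and the classes by mitochondrial share. The looser hashtag rule took in further barcodes without a clear pair.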

How the results depend on the processing

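The ratio of the highest to the lowest population in summed level, 5.21, was 29.9 with a stricter cell filter (400 cells, the smallest population 12, other extremes), 2.52 with a looser filter, 2.27 with none, 4.03 with a looser hashtag rule, 6.57 from the median over members of log2(CPM + 1), and 2.02 without HTO3+HTO7 and HTO4+HTO9. The ratio of the shares of high cells, 5.54 (2.25 to 13.7), was 2.08 (1.15 to 3.77) with no cell filter, with HTO4+HTO7 highest. It was 2.42 (1.34 to 4.38) with the looser filter, which lay within the main interval. Under the stricter filter it had no value, since a population had no high cell. The 28 members at 4-fold (30.7% of all genes) were 10 with the looser filter (28.4%), 8 with none (28.0%) and 3 without those 2 populations (25.4%). The stricter filter brought all 40 past 4-fold, with 58.3% of all genes. The mean correlation, 0.556, was 0.451 with no cell filter, 0.353 after thinning and 0.053 over the 27 members found often enough in cells under 20 summed UMIs. The rank correlation of the order, -0.86, was -0.74 with high cells from 10 UMIs. The 27 of 50 related genes (30.7% of all genes) were 41 of 45 under the stricter filter (58.3%). They were 11 of 50 under the looser filter (28.4%) and 7 of 50 with none (28.0%). Apart from the alternatives that by construction leave out cells or populations, the cause was not tested. In all, 41 values lay within the main 95% interval (ratios), 1.5 times (counts) or 0.1 (correlations) of the main value. Leaving out the 2 populations or 4 members, another denominator and the cells above 10% mitochondrial UMIs were chosen after seeing the data. Depth limits members with 10 UMIs or fewer in HTO4+HTO9. No paired analysis was possible because the labels give 1 library and no replicate numbers.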
